A study of Mus musculus with 15 samples.

Results

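Genes of cytotoxic lymphocytes and natural killer (NK) cells were followed across 15 mouse mammary tumours of 4 tumour models. The genes were chosen by symbol, as the rows of the deposited expression table that carry one of 8 listed names. Of the 8 names, 7 matched a row among 17271 gene rows: Gzma, Gzmb, Prf1, Nkg7, Klrk1, Ncr1 and Il2rb. Tbx21 was not analysed here. All 15 tumours were labelled p53-NULL and came from mice of the BALB/c strain, grown in vivo, and RNA was sequenced from poly(A) libraries of whole tumour tissue. Model 2151R had 4 samples, T11 had 1, 2225L had 2 and 2208L had 8. In 2208L, 4 samples were marked PBS, 3 were marked 3day nt and 1 was marked ROSEN. Each PBS title also carries its own code starting with DH, and each 3day nt title its own code starting with KM. In 2225L, replicate 1 was marked T-Vivo with the library prefix CP, and replicate 2 was marked ROSEN. Among the 2151R samples, replicate 3 was marked NT2, replicate 4 NT, and replicates 1 and 2 carried other short codes. What these codes and 3day nt stand for is not spelled out in the labels, nor are the age of the mice or the host and passage of the tumours. The labels do not say that samples of a model came from separate animals, so p-values measure the spread between these samples, which may be technical.

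Cytotoxic T cells and NK cells kill by releasing granules. Perforin, encoded by Prf1, opens the target cell membrane, and granzymes, serine proteases such as those encoded by Gzma and Gzmb, enter and start cell death. Nkg7 encodes a membrane protein of these granules that is needed for their efficient release. Ncr1 encodes NKp46, an activating receptor that marks NK cells and related innate lymphocytes, and Klrk1 encodes NKG2D, an activating receptor of NK cells and activated CD8 T cells that binds stress-induced ligands on tumour cells. Il2rb encodes the beta chain shared by the receptors for interleukin 2 and interleukin 15, on which NK cells depend.

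In the RefSeq annotation of GRCm38.p6, the mm10 build, Prf1 lies at chr10:61297751-61304684, Gzma at chr13:113093824-113100981, Gzmb at chr14:56258836-56262334 and Nkg7 at chr7:43437138-43438246. Ncr1 lies at chr7:4337715-4345184, Klrk1 at chr6:129610323-129623903 and Il2rb at chr15:78479256-78511621. The sequences just before the annotated starts of Prf1, Gzmb, Ncr1 and Gzma are shown, because the first 3 were called between 2151R and 2208L and Gzma between the 2208L subsets. They were read for the core letters bound by factors known from cytotoxic lymphocytes. The letters searched, on both strands, were TGTGGT for Runx factors, AGGTGT for T-box factors such as those encoded by Tbx21 and Eomes, TTCNNNGAA for STAT factors and CAGGAA for Ets factors. Each sequence runs 5′ to 3′ in the direction of the gene, ends at the base before the start and comes from the RefSeq promoter table of GRCm38.p6. Capitals mark the matches. The windows are chr13:113100982-113101231 on the minus strand for Gzma, chr14:56262335-56262584 on the minus strand for Gzmb, chr10:61297586-61297750 on the plus strand for Prf1 and chr7:4337465-4337714 on the plus strand for Ncr1.
Prf1: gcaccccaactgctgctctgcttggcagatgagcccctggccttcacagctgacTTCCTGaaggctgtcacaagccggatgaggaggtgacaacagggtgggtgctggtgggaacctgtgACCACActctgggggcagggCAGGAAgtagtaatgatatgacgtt
Gzmb: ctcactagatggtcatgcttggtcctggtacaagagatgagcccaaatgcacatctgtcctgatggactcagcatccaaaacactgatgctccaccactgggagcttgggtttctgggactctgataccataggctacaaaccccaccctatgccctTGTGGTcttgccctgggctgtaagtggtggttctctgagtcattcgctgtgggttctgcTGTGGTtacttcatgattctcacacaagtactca
Ncr1: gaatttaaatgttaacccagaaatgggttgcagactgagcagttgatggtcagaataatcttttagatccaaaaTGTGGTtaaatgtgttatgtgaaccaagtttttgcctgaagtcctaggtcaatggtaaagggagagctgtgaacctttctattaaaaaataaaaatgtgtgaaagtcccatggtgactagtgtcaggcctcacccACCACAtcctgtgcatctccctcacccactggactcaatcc
Gzma: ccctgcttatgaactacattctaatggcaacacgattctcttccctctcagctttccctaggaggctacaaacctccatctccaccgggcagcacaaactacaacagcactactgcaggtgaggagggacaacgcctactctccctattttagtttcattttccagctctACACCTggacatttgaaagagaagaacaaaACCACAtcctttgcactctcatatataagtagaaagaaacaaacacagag

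Of the 7 genes, 6 matched an entry of the promoter table, and Il2rb did not. The Runx letters occurred in 6 of these 6 windows, including those of Nkg7 and Klrk1, which are not printed. They occurred in 14.0% of 32851 promoter windows of 250 bases, and in 9.23% of windows cut to the 165 bases that Prf1 has before its first annotated start. The Klrk1 window held 211 bases, a length at which the share was 11.8%. T-box letters lay in 2 of the 6 windows, those of Gzma and Nkg7, against 11.8% of all windows of 250 bases. Ets letters lay in 3 windows, those of Prf1, Nkg7 and Klrk1, against 25.7% of windows of 250 bases, 22.5% of 211 bases and 18% of 165 bases. STAT letters lay in 1 window, that of Nkg7, where they overlap an Ets match, against 7.02% of windows of 250 bases. The Nkg7 window overlaps an annotated Nkg7 exon, so its matches need not lie in a promoter. These are matches of letters, not measured binding.

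Each deposited value is a log2 expression value, centred gene by gene on a reference that the sources do not name. A difference of 1 between samples is therefore a doubling on the deposited scale, but 1 gene's level cannot be set against another's, and a value does not show whether a gene is switched on. Depth is unknown for want of counts. Of the 7 genes, 6 had 1 sample at exactly 0. Some libraries stood apart. Over all genes, the sample median was lowest in 2208L replicate 5 at -0.29 and lay between -0.10 and 0.10 in the others. The mean of 8 skeletal muscle genes was 9.47 in replicate 6 and 8.93 in replicate 8 of 2208L, both 3day nt, and 6.42 in replicate 3 of 2151R. The library numbers of 2151R, of the PBS samples and of the 3day nt samples fall in separate ranges, so that their effect cannot be told apart from that of the model or subset. The same holds for the DH and KM codes, which follow the PBS and 3day nt subsets. In whole tumours, fewer cells of a type and less RNA per cell cannot be told apart either.

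The first question was whether the models differ in these genes. RNA of perforin, granzyme B, NKp46 and the interleukin 2 receptor beta chain was higher in 2151R than in 2208L, by 3.56-fold to 11.1-fold. Gzma, Nkg7 and Klrk1 did not pass the test. Thus 4 of the 7 genes (57.1%) were called higher at a Benjamini-Hochberg adjusted p-value under 0.05 with limma, beside 26.1% of all 17271 genes. None of the 7 was called lower, beside 22.7% of all genes, and 0 were lower at an unadjusted p under 0.05. The median difference over the 7 genes was 1.83, against 0.10 over all genes tested.

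Among the granule genes, Prf1 stood at 3.07, 1.99, 3.01 and 2.96 in replicates 1 to 4 of 2151R. In 2208L it ran from -2.31 in the ROSEN sample over a median of -0.74 to 1.18 in 3day nt replicate 6. The groups did not overlap: the lowest 2151R sample lay above the highest of 2208L. The difference was 3.47 (SE 0.56, 95% interval 2.26 to 4.69, limma adjusted p = 0.000196), an 11.1-fold higher level on the deposited scale. Prf1 was called higher in 2151R in 25 of 25 alternative settings, with differences of 2.93 to 3.74.

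Gzmb stood at 2.81, 1.87, 1.63 and 1.96 in the 4 samples of 2151R. In 2208L it ran from -1.58 in PBS replicate 5 over a median of 0.04 to 1.67 in 3day nt replicate 6. That 1 sample of 2208L reached into the range of 2151R, above replicate 3, and the other 7 lay below it. Gzmb averaged 2.07 ± 0.51 (SD, n = 4) in 2151R against -0.07 ± 1.0 (SD, n = 8) for the 2208L tumours. The models thus differed by 2.13 (SE 0.54, 95% interval 0.97 to 3.30, limma adjusted p = 0.0053). With only the samples marked NT, nt or PBS in these models, which leaves 2 samples of 2151R, the adjusted p for Gzmb was 0.0707.

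Gzma encodes granzyme A. Its values in 2151R were 0.62, 0.82, 1.08 and 1.56. Those in 2208L covered the whole range on both sides, from -2.87 in the ROSEN sample over a median of -0.13 to 2.67 in replicate 6. The difference of 1.10 (SE 0.84, 95% interval -0.71 to 2.90, limma adjusted p = 0.298) was within the spread of 2208L, whose SD was 1.84.

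Nkg7 stood at 0.71, 0.14, 0.21 and 0.00 in 2151R. In 2208L it ran from -3.03 in PBS replicate 2 over a median of -0.31 to 1.06 in replicate 6. The 2151R samples lay within the upper part of that range, and the difference of 1.14 (SE 0.85, 95% interval -0.69 to 2.97, limma adjusted p = 0.285) did not pass the test.

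**Figure D1:**
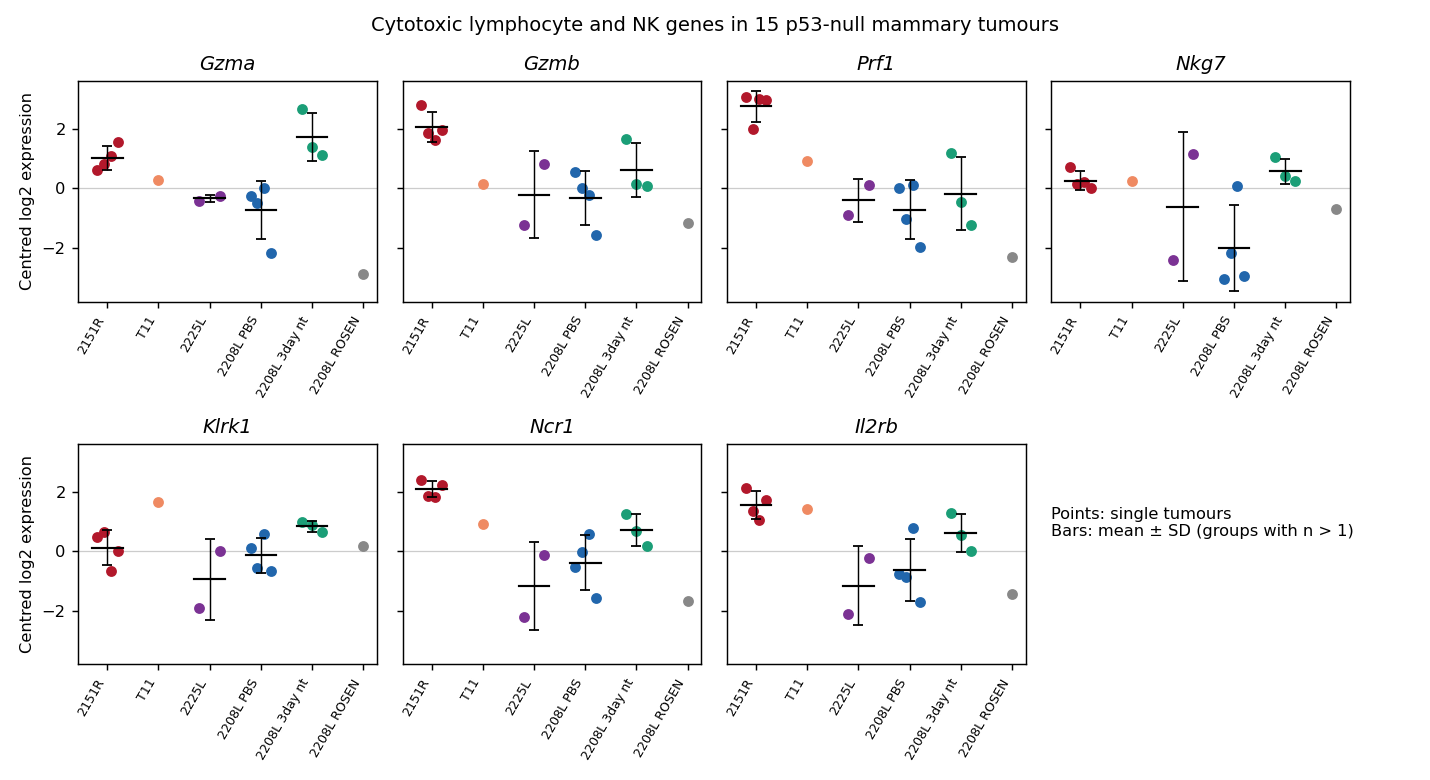
Deposited log2 value (centred per gene) of the 7 genes, 1 panel a gene, by model and, for 2208L, by subset. Points are single tumours and bars are the mean and SD. All 4 samples of 2151R lie above all 8 of 2208L for Prf1 and Ncr1, while Gzmb, Il2rb, Gzma, Nkg7 and Klrk1 overlap.

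Of the receptors, Ncr1 separated the 2 models without overlap. Its values in 2151R were 2.38, 1.87, 1.83 and 2.23. In 2208L it ran from -1.68 in the ROSEN sample over a median of 0.07 to 1.25 in replicate 6, below the lowest of 2151R. The difference was 2.22 (SE 0.55, 95% interval 1.03 to 3.40, limma adjusted p = 0.00453), or 4.65-fold. Groups without overlap and higher in 2151R were found for 2 of the 7 genes, Prf1 and Ncr1, beside 20.6% of all genes.

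Klrk1, the gene of NKG2D, stood at 0.49, 0.64, -0.67 and -0.01 in 2151R. In 2208L it ran from -0.67 in PBS replicate 5 over a median of 0.37 to 0.99 in 3day nt replicate 6. The 2 ranges nearly coincided, and the difference was -0.16 (SE 0.41, 95% interval -1.04 to 0.73, limma adjusted p = 0.774). The interval excludes a doubling in 2151R but not a doubling in 2208L. The same Klrk1 value, 0.64, was listed for 2151R replicate 2 and 2208L replicate 8.

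Il2rb stood at 2.14, 1.35, 1.04 and 1.71 in 2151R. In 2208L it ran from -1.73 in PBS replicate 5 over a median of -0.38 to 1.27 in replicate 6, the 1 sample that reached into the 2151R range. The difference was 1.83 (SE 0.56, 95% interval 0.62 to 3.05, limma adjusted p = 0.0159). Without replicate 1 of 2151R the adjusted p was 0.057 at a difference of 1.64, and with only the NT, nt and PBS samples it was 0.144 at 1.48.

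Model 2225L was represented by 2 samples that lay far apart. Their library prefixes differ, CP in replicate 1 and ROSEN in replicate 2, so the gap cannot be told apart from that difference. Replicate 2 was higher than replicate 1 in each of the 7 genes. Gzmb was -1.24 and 0.83, Prf1 was -0.90 and 0.12, Ncr1 was -2.23 and -0.14, and Il2rb was -2.11 and -0.23 in replicates 1 and 2. Nkg7 was -2.39 and 1.16, the lower of them below all 4 samples of 2151R and the higher above them. Klrk1 was -1.91 and 0.00, and Gzma was -0.42 and -0.25.

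Against 2151R, the 4 genes that were high in 2151R were lower in 2225L. Prf1 was lower by 3.15 (SE 0.79, limma adjusted p = 0.00538), or 8.90-fold, and Ncr1 by 3.26 (SE 0.77, limma adjusted p = 0.00376), or 9.57-fold. Il2rb was 6.62-fold lower (limma adjusted p = 0.0126) and Gzmb 4.84-fold lower (limma adjusted p = 0.0256). These are 4 of 7 genes (57.1%), beside 25.8% of all genes called lower and 22.8% called higher, and 0 of the 7 were called higher. Gzma joined them among the 5 genes whose groups did not overlap, beside 33.4% of all genes lower in 2225L without overlap, but its difference of -1.36 (SE 1.18, limma adjusted p = 0.364) did not pass the test. That SE draws on all models in the fit, and the SD of Gzma was 1.84 in 2208L, 0.41 in 2151R and 0.12 in 2225L. Gzma was called in 1 of 17 alternative settings of this comparison. The median over the 7 genes was -2.27, against -0.10 over all genes. The calls rest on replicate 1 of 2225L. Without it 0 of the 7 genes were called, with limma adjusted p = 0.0544 for Prf1, 0.0674 for Ncr1, 0.153 for Il2rb and 0.284 for Gzmb, and without replicate 2 there were 5, Klrk1 being added. Without 2151R replicate 1, Gzmb was lost at an adjusted p of 0.0612.

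Against 2208L, 0 of the 7 genes were called in 2225L by limma, beside 15.6% of all genes called higher and 17.3% called lower. At an unadjusted p under 0.05 there was 1, Klrk1, which was lower by 1.22 (SE 0.53, 95% interval -2.36 to -0.08, limma adjusted p = 0.0945). The differences of the other 6 genes ran from -1.04 for Ncr1 to 0.32 for Prf1, and the median over the 7 was -0.26, against -0.04 over all genes. The model comparisons share samples, so the low values of 2225L against 2151R and the high values of 2151R against 2208L are not separate evidence. All 3 rest on 1 fit of the 15 samples.

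**Figure D2:**
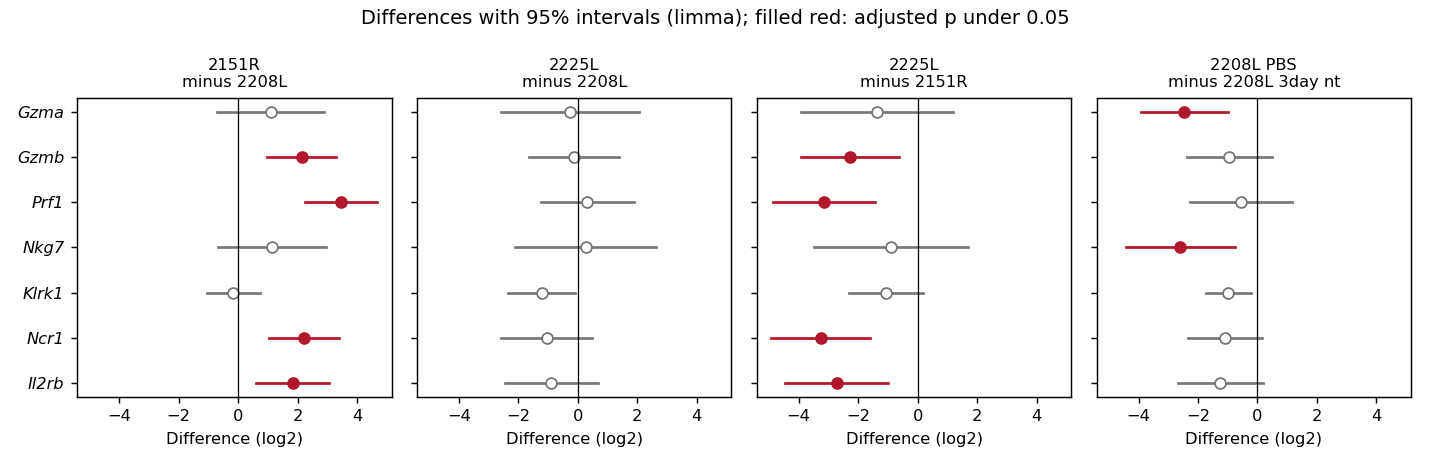
Difference in log2 value for each of the 7 genes in 4 comparisons, with 95% intervals from limma. Filled red points have an adjusted p under 0.05. Prf1, Gzmb, Ncr1 and Il2rb are called in both comparisons with 2151R, and Gzma and Nkg7 are called between the 2208L subsets.

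The only T11 tumour gives values without a test. It had the highest Klrk1 of all 15 samples, at 1.65, against 0.99 in the next, which was 2208L replicate 6. It lay below all 4 samples of 2151R in 4 genes, with 0.94 for Prf1, 0.16 for Gzmb, 0.92 for Ncr1 and 0.28 for Gzma. For Il2rb at 1.42 and Nkg7 at 0.25 it lay within the range of 2151R. Compared with 2208L it lay within the range for 5 genes and above it for Klrk1 and Il2rb.

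The second question concerned the subsets of 2208L. All 7 genes had a lower mean in the PBS samples than in the 3day nt samples, and Gzma and Nkg7 passed the test. These are 2 of 7 genes (28.6%), beside 16.5% of all genes called lower in PBS and 17.4% called higher, and 0 of the 7 were called higher. The median difference over the 7 was -1.09, against -0.05 over all genes.

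Gzma stood at -0.25, -0.49, 0.00 and -2.18 in the PBS samples and at 2.67, 1.41 and 1.13 in the 3day nt samples. The groups did not overlap. Gzma was lower in PBS by 2.46 (SE 0.61, 95% interval -3.92 to -1.01, limma adjusted p = 0.0238), or 5.52-fold. The ROSEN sample, which is in neither subset, had the lowest Gzma of all at -2.87.

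Nkg7 stood at -3.03, -2.16, 0.08 and -2.96 in the PBS samples and at 1.06, 0.41 and 0.26 in the 3day nt samples. The groups did not overlap, and PBS replicate 4 lay nearest to the 3day nt samples. Nkg7 was lower in PBS by 2.59 (SE 0.77, limma adjusted p = 0.0404), or 6.04-fold. Klrk1 was the third gene without overlap. It was 0.09, -0.56, 0.57 and -0.67 in PBS and 0.99, 0.89 and 0.64 in 3day nt, a difference of -0.98 (SE 0.32, limma adjusted p = 0.0522). Without overlap and lower in PBS were thus 3 of the 7 genes (Gzma, Nkg7 and Klrk1), beside 23.8% of all genes.

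The other 4 genes overlapped. Prf1 was 0.00, -1.03, 0.13 and -1.98 in PBS and 1.18, -0.45 and -1.24 in 3day nt. Its difference of -0.55 (SE 0.72, limma adjusted p = 0.574) was smaller than the spread within either subset. Gzmb differed by -0.94 (SE 0.60, limma adjusted p = 0.253), Ncr1 by -1.09 (SE 0.52, limma adjusted p = 0.147) and Il2rb by -1.25 (SE 0.60, limma adjusted p = 0.144).

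The 2 calls depended on single samples. With PBS replicate 3, or 3day nt replicate 6 or 8, left out, 0 of the 7 genes were called, and with PBS replicate 4 left out there were 4. Without PBS replicate 2 or 5, or 3day nt replicate 7, only Gzma was called. Over these 7 omissions the difference ran from -2.76 to -1.98 for Gzma and from -3.29 to -2.25 for Nkg7. Calls over all genes moved too, from 3007 higher and 2857 lower in PBS with no sample left out. With 1 sample left out they ran from 1362 to 3988 higher and from 1017 to 3111 lower. The changes in calls are thus not particular to the 7 genes. The 3day nt replicates 6 and 8 were also those with high skeletal muscle genes. The mean of the 8 muscle genes ran from -4.66 to 1.88 in PBS and from 0.72 to 9.47 in 3day nt, and 1 of the 8 was called lower in PBS. With both left out, 1 sample of 3day nt remained, assumed to vary like the PBS samples. Gzma then differed by -2.13 (limma adjusted p = 0.271) and Nkg7 by -2.43 (limma adjusted p = 0.363). The part of muscle tissue in these calls was not tested further.

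The choice of 2208L subset changed which genes separated 2151R from 2208L. Against the 4 PBS samples alone, 6 of the 7 genes were higher in 2151R and 0 lower, beside 27.5% of all genes called higher and 22.9% called lower. Gzma, higher by 1.75 (SE 0.47, limma adjusted p = 0.00945), and Nkg7, higher by 2.28 (SE 0.78, limma adjusted p = 0.0304), were added to the 4 called against all of 2208L. Against the 3 3day nt samples alone, Prf1 was the only one called, at 2.93 (SE 0.63, limma adjusted p = 0.00231), beside 27.7% of all genes called higher and 27.1% called lower. Gzma and Nkg7 then had the opposite sign, at -0.71 and -0.31, with limma adjusted p of 0.258 and 0.775. Gzmb was 1.44 higher (limma adjusted p = 0.0683), Ncr1 1.38 higher (limma adjusted p = 0.0518) and Il2rb 0.95 higher (limma adjusted p = 0.197) in 2151R.

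The subset also changed the calls of 2225L. Against PBS, 0 of the 7 genes were called by limma, with adjusted p from 0.226 for Klrk1 to 0.915 for Gzmb, beside 23.1% of all genes called higher and 24.9% called lower. Against 3day nt, 3 were lower in 2225L: Gzma by 2.07 (SE 0.61, limma adjusted p = 0.0219), Klrk1 by 1.79 (SE 0.56, limma adjusted p = 0.0274) and Ncr1 by 1.88 (SE 0.65, limma adjusted p = 0.0435). Of all genes, 19.8% were called lower and 15.9% higher in that comparison.

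**Figure D3:**
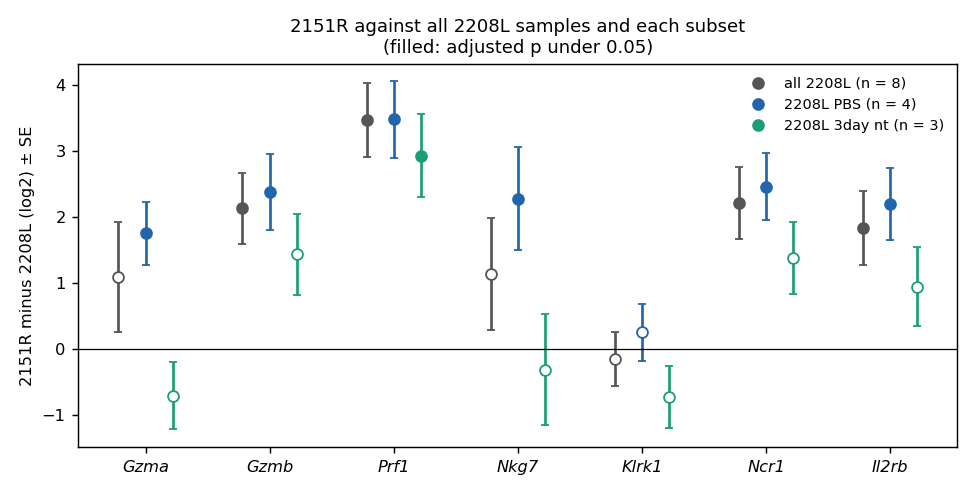
Difference in log2 value of 2151R from all of 2208L, from its PBS samples and from its 3day nt samples, for each gene, with the SE. Prf1 lies between 2.93 and 3.48 with each reference, while Gzma and Nkg7 are above 0 against PBS and below 0 against 3day nt.

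Sample by sample, the mean of the 7 genes was highest in 2151R replicate 1 at 1.55 and replicate 4 at 1.29. The 3day nt replicate 6 of 2208L followed at 1.25, above 2151R replicates 2 and 3 at 1.05 and 0.97. T11 stood at 0.61. The lowest were 2208L replicate 5 at -2.0, 2225L replicate 1 at -1.79 and the ROSEN sample of 2208L at -1.62. Replicate 5 is also the sample whose median over all genes was lowest, at -0.29.

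The 7 genes did not vary as 1 block. As a description over the 15 samples, which share models and libraries, Ncr1 and Il2rb were the most alike, with Pearson's r of 0.967, and 0.955 within the 8 samples of 2208L. Gzmb followed Prf1 with r of 0.909, and 0.894 within 2208L. Prf1 and Klrk1 were least alike, with r of 0.217 over all samples but 0.601 within 2208L. Nkg7 and Klrk1 had r of 0.619, and 0.888 within 2208L.

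Likeness was also ranked over the other genes of the table, with the 7 genes themselves and symbols of predicted genes left out. Those most like the mean of the 7 were Flt3 (r = 0.948), AI662270 (r = 0.940), C1qtnf6 (r = 0.930), Timd4 (r = 0.925) and Stard8 (r = 0.925). For single genes, the closest of these other genes over the 15 samples was Man1a for Prf1 (r = 0.951) and Rab21 for Ncr1 (r = 0.949). It was Hfe for Il2rb (r = 0.939) and Cd3g, a chain of the T cell receptor complex, for Nkg7 (r = 0.932). It was Dok1 for Klrk1 (r = 0.920), Cdk20 for Gzmb (r = 0.911) and Cd209a, a dendritic cell lectin, for Gzma (r = 0.902). Ncr1 and Il2rb were closer to each other, with r of 0.967, than to any of these. These values rank likeness over samples that share models and libraries, and carry no test.

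The other granule and death effectors were described through a list of 18 genes, of which 14 were matched. In 2151R against 2208L, 6 (42.9%) were higher and 3 (21.4%) lower, beside 26.1% and 22.7% of all genes. The higher ones include Gzmc, Gzmd, Gzmf and Gzmg, granzymes encoded in a cluster with Gzmb. Gzme, of the same cluster, was not called. The lower ones, named after their values were seen, were Unc13d, Tnfsf10 and Rab27a, with differences of -1.93, -1.38 and -0.95. None of the 7 genes is in this list. Gzmc was 4.89, 3.57, 4.01 and 3.52 in 2151R and 1.2 ± 1.08 (SD, n = 8) in 2208L. Gzmc was thus 2.80 higher (SE 0.53, limma adjusted p = 0.000684). Gzmd was 5.0, 3.56, 5.06 and 4.07 in 2151R, 2.73 higher than in 2208L (SE 0.69, limma adjusted p = 0.0054). Gzmf at 6.52 to 8.44 and Gzmg at 5.68 to 8.08 in 2151R were higher than in any 2208L sample, where the highest were 4.72 and 4.61. Both were listed at exactly 0.00 in T11 and in all 3 3day nt samples, which is not read as a measured level, so no fold is given. Gzme, named after its values were seen, was 2.68, 2.05, 2.75 and 2.0 in 2151R, a difference from 2208L of 0.44 (SE 0.64, limma adjusted p = 0.594).

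Within 2208L, Gzmd was higher in the PBS samples, where Gzma was lower. It was 2.66 higher in PBS than in 3day nt (SE 0.40, limma adjusted p = 0.00605), with 3.82, 2.55, 2.49 and 3.01 in PBS against 0.00, -0.01 and 0.94 in 3day nt. Gzme was 2.52 higher in PBS (SE 0.39, limma adjusted p = 0.00651), where it was 3.62, 2.80, 2.53 and 3.47, and 3 of these 4 values lay above all of 2151R. In all, 3 of the 14 effectors (21.4%) were higher and 2 (14.3%) lower in PBS, close to the 17.4% and 16.5% of all genes. T11 had the lowest Gzmd and Gzme of all samples, at -2.92 and -3.15.

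Of 34 NK receptors and adaptors, 15 were matched. In 2151R against 2208L, 4 were higher and 3 lower, and in PBS against 3day nt 1 was higher and 3 lower. The first of these are 26.7% and 20% of the 15 genes, close to the 26.1% and 22.7% of all genes, so that the counts do not set the receptors apart. Between the subsets they are 6.67% and 20%, beside 17.4% and 16.5% of all genes. Klrg1, an inhibitory receptor of mature NK and effector T cells, was 1.99 lower in 2151R (SE 0.29, limma adjusted p = 7.98e-05), and Klrb1a, of the NK1.1 receptor family, was 1.41 lower (SE 0.37, limma adjusted p = 0.0069). The 4 called higher, named after their values were seen, were Cd247 by 0.98, Fcgr3 by 0.79, Fcer1g by 0.75 and Tyrobp by 0.65. Of the 15 differences 10 were above 0, with a median of 0.645. Receptors of NK cells therefore did not all move with Ncr1. Hcst, which encodes DAP10, the adaptor that signals for NKG2D, was lower in PBS than in 3day nt by 1.99 (SE 0.35, limma adjusted p = 0.00839), while Itga2 was 1.40 higher (SE 0.26, limma adjusted p = 0.00986).

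Of 12 transcription factors of these cells, 10 were matched, of which 4 (40%) rose and 3 (30%) fell in 2151R relative to 2208L. Over all genes the shares were 26.1% and 22.7%. Eomes, a T-box factor of NK and memory CD8 T cells, was 1.86, 1.61, 1.19 and 1.51 in 2151R and at most 0.00 in the 8 samples of 2208L. The difference was 2.46 (SE 0.32, limma adjusted p = 2.85e-05). T11 was at 1.58, within the 2151R range, and 2225L at -2.51 and -1.66, below all samples of 2151R. Zeb2, a factor of NK cell maturation that other cells also express, was 2.47 higher (SE 0.28, limma adjusted p = 7.57e-06). Id2 and Bcl11b were lower in 2151R, by 2.84 (SE 0.23, limma adjusted p = 3.77e-07) and by 1.89 (SE 0.49, limma adjusted p = 0.0059). In PBS against 3day nt, 3 of the 10 factors (30%) were higher and 0 lower by limma, beside 17.4% and 16.5% of all genes. At an unadjusted p under 0.05, 2 of the factors were lower.

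In the list of interleukin 2, 12, 15, 18 and 21 signalling, 13 of 18 genes were matched. Between 2151R and 2208L, 2 were higher and 2 lower beside Il2rb, which is not in the list. Each count is 15.4% of the 13 genes, below the 26.1% and 22.7% of all genes. Il12rb1, a chain of the interleukin 12 receptor, was 2.47 higher in 2151R (SE 0.30, limma adjusted p = 1.78e-05). Il18r1, of the interleukin 18 receptor, was 2.51 lower (SE 0.53, limma adjusted p = 0.00152), and Stat5a, which acts below Il2rb, was 1.26 lower (SE 0.17, limma adjusted p = 3.71e-05). In PBS against 3day nt, 3 (23.1%) were lower, beside 16.5% of all genes. Among them were Il18r1 by 1.51 (SE 0.28, limma adjusted p = 0.00992) and Il21r by 1.35 (SE 0.30, limma adjusted p = 0.0168).

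The ligands of NKG2D are made by stressed and tumour cells, and 4 of 9 were matched. All 4 were higher in 2151R than in 2208L, beside 26.1% of all genes, although Klrk1, the receptor gene, was not. Ulbp1 was 4.14, 3.26, 3.59 and 3.83 in 2151R and at most 0.00 in 2208L, so that it was 4.12 higher (SE 0.41, limma adjusted p = 2.73e-06). H60b was 4.09 higher (SE 0.74, limma adjusted p = 0.000471), Raet1e 2.57 higher (SE 0.49, limma adjusted p = 0.000684) and Raet1d 2.36 higher (SE 0.46, limma adjusted p = 0.000791). T11 also had high ligands, with 2.15 for Ulbp1 and 1.98 for H60b, the highest H60b of the 15 samples. In 2225L, Ulbp1 was -3.39 and -0.43. Between PBS and 3day nt, 0 of the 4 ligands were called by limma, nor was any at an unadjusted p under 0.05.

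**Figure D4:**
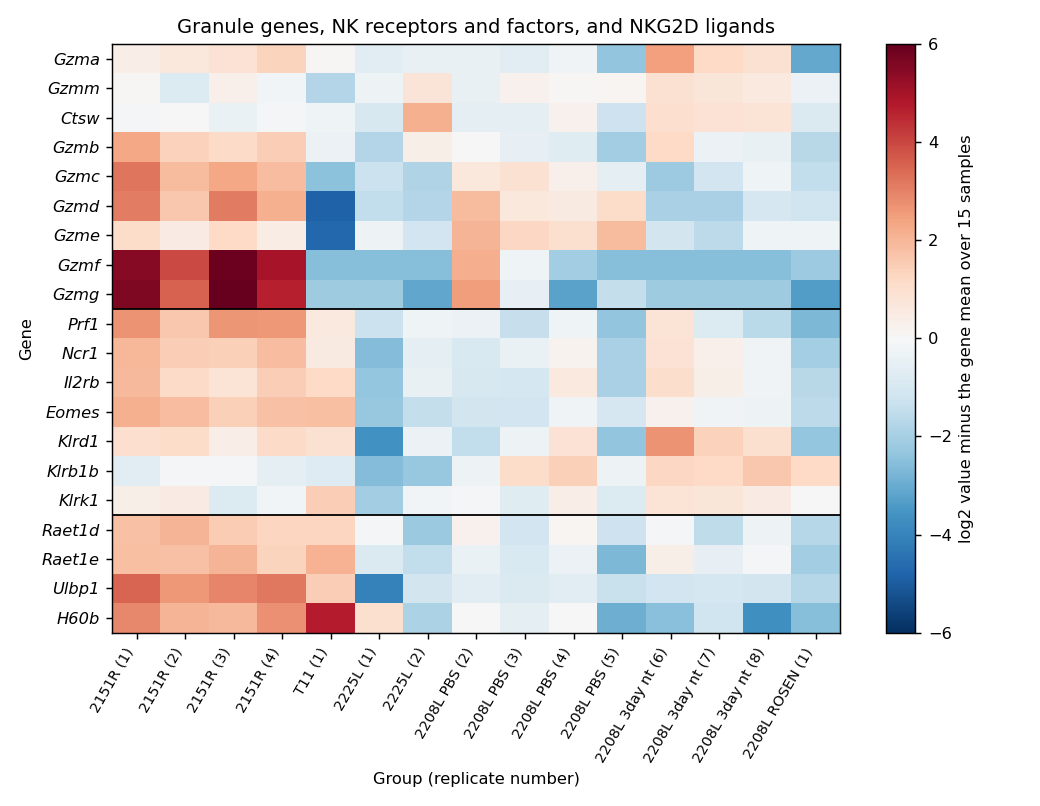
Value of 20 genes of granules, receptors, regulators and NKG2D ligands in each of the 15 samples, minus the gene's mean over the samples, as colour on a log2 scale. Gzmc, Gzmd, Gzmf, Gzmg, Prf1, Ncr1, Eomes and the ligands are high in the 4 samples of 2151R, while Gzme is higher on average in the PBS samples of 2208L, and the 20 genes were chosen after their values were seen.

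Markers of other leukocytes moved with the 7 genes in some comparisons, and their part in the results was not tested. Of 15 T cell genes, 2 rose (13.3%) and 0 fell in 2151R relative to 2208L, with a median difference of 0.59. The share that rose was below the 26.1% of all genes that rose, and 22.7% of all genes fell. The list mean ran from -0.03 to 0.70 in 2151R, from -1.48 to 0.29 in PBS and from 0.31 to 1.06 in 3day nt, with 0.31 in T11 and -1.38 and 0.89 in 2225L. Cd3d, a chain of the T cell receptor complex, differed between 2151R and 2208L by 0.40 (SE 0.97, limma adjusted p = 0.754). The 2 genes that rose were Cd28, a costimulatory receptor of T cells, by 2.78 (SE 0.62, limma adjusted p = 0.00233), and Cd4, by 1.30 (SE 0.39, limma adjusted p = 0.0146), and 13 of the 15 differences were above 0. Cd4 and Cd3d are named here after their values were seen for this comparison.

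Between the 2208L subsets the T cell list did move in the direction of Gzma and Nkg7. Of its 15 genes 6 (40%) were lower in PBS and 0 higher, beside 16.5% and 17.4% of all genes, with a median of -1.25. Cd2 was lower by 2.81 (SE 0.60, limma adjusted p = 0.0148), Cd3d by 2.43 (SE 0.75, limma adjusted p = 0.0451) and Cd8b1 by 1.95 (SE 0.60, limma adjusted p = 0.0468). In 2225L the T cell list mean was higher in replicate 2, at 0.89, than in replicate 1, at -1.38. The 7 cytotoxic and NK genes and the mean of the genes of all leukocytes had the same order. Cd4, Cd5 and Thy1 had the opposite order.

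Macrophage markers rose in 2151R relative to 2208L: 7 of 9 (77.8%) were called higher and 0 lower, beside 26.1% and 22.7% of all genes. The list mean ran from 0.78 to 1.12 in 2151R against -0.69 to -0.039 in PBS and -0.22 to 0.19 in 3day nt. It was -1.75 and -0.91 in 2225L and 1.25 in T11. Of 8 genes of all leukocytes, 2 rose (25%) and 0 fell in 2151R relative to 2208L, near the 26.1% of all genes that rose. In 2225L, 7 of the 8 (87.5%) were lower than in 2208L, beside 17.3% of all genes. The leukocyte list mean was -2.14 in 2225L replicate 1, the sample on which the 2225L calls rest, and -0.90 in replicate 2. Epithelial genes also differed, 7 of 8 (87.5%, beside 22.7% of all genes) being lower in 2151R and the other higher.

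**Figure D5:**
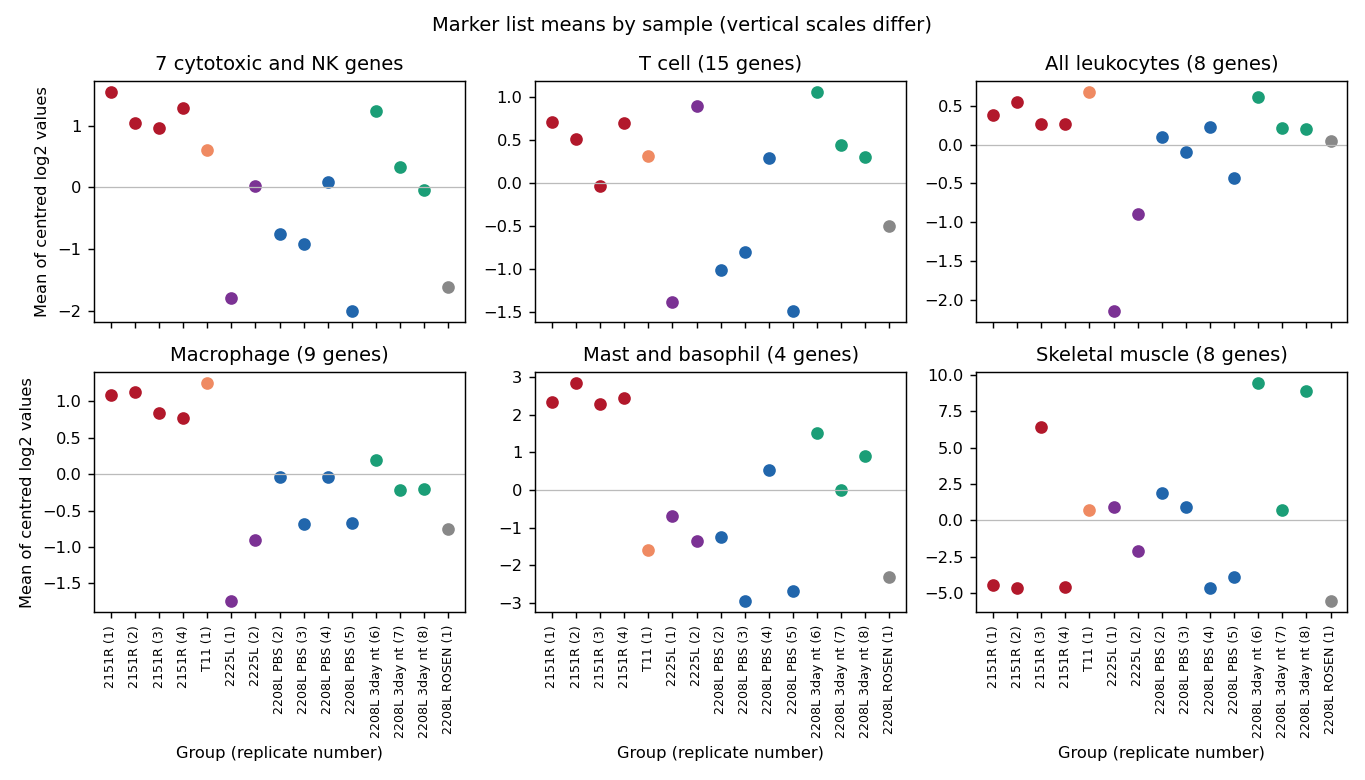
Mean log2 value of 6 marker gene lists in each sample, by model and 2208L subset, each point being 1 tumour. The macrophage mean is above that of every 2208L sample in all 4 tumours of 2151R, T cell genes overlap between the models, and skeletal muscle genes are high in 3 tumours.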

How the data were processed

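Total RNA of 15 mouse mammary tumours was isolated with a column kit and sequenced from poly(A) libraries, per the labels' protocols. The submitters' processing notes name STAR, Salmon and mm10, with no role or version. The authors deposited 1 table of log2 values, centred for each gene on an unstated reference, for 17271 gene symbols. The offset, the normalization between samples and the depth are not given in the sources used here, and the table holds no counts. In 727 genes at least 2 samples share exactly the same value. No sample column was left out.

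Values were compared as deposited, without a filter or pseudocount. That choice keeps the values of 0 and the repeated values. Linear models were fitted per gene (limma version 3.58.1, R version 4.3.3, functions lmFit and eBayes with no intensity trend), 1 fit of all 15 samples for the models and 1 of the 7 PBS and 3day nt samples for the subsets. Calls have a Benjamini-Hochberg adjusted p-value under 0.05 over all 17271 genes, and a fold is 2 to the power of the difference. The fit was tested on simulated data. T11 has 1 sample and was not tested. Replicate numbers follow the accession order and pair no samples. Libraries were grouped by the titles, with the table's header.

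The genes, the lists and the tests were chosen with earlier results of these data known. Besides the 7 genes, the text as a rule names at most 4 genes a list, those called between 2151R and 2208L or between the subsets with the largest difference. It also names the genes most like the 7 over the 15 samples, the 7 themselves and predicted-gene symbols left out. Genes in the text or the colour plot outside this rule were chosen after their values were seen. Alternatives covered scaling, centring, filters, sample weights, covariates, subsets and leaving out each replicate. Gene positions and promoters come from RefSeq, GRCm38.p6, and promoter windows were checked against GENCODE M21 exons, which overlap the Nkg7 window alone among the 6.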

Additional observations from a re-analysis of the deposited data

Results flagged for a closer look

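Prf1 in 2151R replicate 2 was 1.99, while the other 3 samples of that model lay between 2.96 and 3.07. The gap was 0.898 of the group's whole range, above Dixon's 95% critical value for a group of 4. In all 24 groups of values were examined in this way, and 1 held such a sample. Chance at 1 in 20 would give 1.2. The groups were not separate, because the PBS samples lie within 2208L and the mean of the genes was examined beside each gene. The comparison with 1.2 is therefore only rough.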

How the results depend on the processing

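No paired analysis was possible because replicate numbers only follow accession order. Over the 28 differences of the 7 genes and their alternatives, 545 of 570 values kept their direction, 25 calls were lost and 16 were gained. The count of genes called higher in 2151R than in 2208L (4) was 2 with NT, nt and PBS samples only, 1 against 3day nt alone and 3 to 4 with 1 sample left out. Genes called lower in 2225L than in 2208L (0) numbered 3 against 3day nt and 0 to 1 with 1 sample left out, and those lower in 2225L than in 2151R (4) numbered 2 with sample weights and 0 to 5 with 1 sample left out. Genes called lower in PBS (2) numbered 0 without the samples with high muscle genes and 0 to 4 with 1 sample left out.

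Signs that turned were mostly those of 2225L against 2208L. Against PBS, Gzma was 0.40 and Gzmb 0.11, against 3day nt Prf1 was -0.22 and Nkg7 -1.20, without the muscle-high samples Gzma was 0.40 and Gzmb 0.17, and with the library prefix as a covariate Gzma was 0.48 and Nkg7 -0.27. With 1 sample left out, Gzma ran from -0.66 to 0.13, Gzmb from -1.17 to 0.89, Prf1 from -0.19 to 0.83, Nkg7 from -1.51 to 2.03, Ncr1 from -2.09 to 0.0018 and Il2rb from -1.83 to 0.046. For 2151R against 2208L, Klrk1 was 0.25 against PBS, 0.29 without the muscle-high samples and -0.33 to 0.10 with 1 sample left out, and against 3day nt Gzma was -0.71 and Nkg7 -0.31. Nkg7 of 2225L against 2151R ran from -2.66 to 0.89 with 1 sample left out. Prf1 in PBS against 3day nt was 0.75 with sample weights and -1.08 to 0.13 with 1 sample left out. The cause was not tested.

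Over all genes, a minimum difference of 1 left 2585 calls for higher and 2566 for lower values of 2151R against 2208L, and 1206 and 1002 in PBS. With sample weights there were 958 and 1200 for 2225L against 2208L, 2529 and 2723 against 2151R, and 5938 and 5754 in PBS. The PBS comparison fell to 1362 and 1017 without replicate 8, 1723 and 1227 without replicate 6, and 76 and 22 without both.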

Other observations

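Other cell types also differed between the tumours. Of 4 matched mast cell and basophil genes, 3 (75%, beside 26.1% of all genes) rose in 2151R relative to 2208L with limma. They were the proteases Cpa3 by 5.66 (SE 1.02, adjusted p = 0.000467), Mcpt4 by 5.55 (SE 1.2, adjusted p = 0.00179) and Tpsb2 by 5.32 (SE 1.11, adjusted p = 0.00141). Mcpt4 was listed at exactly the same value, -4.48, in 2208L replicates 1, 3 and 5, and Cpa3 at -4.42 in replicates 3 and 5. Such repeats are not read as measured levels, so the sizes of the differences of Mcpt4 and Cpa3 are uncertain. Kit, a receptor of mast cells that epithelial cells also make, was lower by 3.44 (SE 0.34, limma adjusted p = 2.37e-06). The list mean was 2.30 to 2.85 in 2151R, -1.61 in T11, -2.97 to 0.52 in the PBS samples and 0.00 to 1.51 in the 3day nt samples of 2208L. Between PBS and 3day nt, Cpa3, Mcpt4 and Tpsb2 differed by -3.06, -3.62 and -3.52, with limma adjusted p of 0.0883, 0.0571 and 0.0551, on the same side as Gzma and Nkg7. Neutrophil genes had the opposite direction. Of 7 matched, 4 (57.1%) were lower in 2151R than in 2208L, beside 22.7% of all genes. In PBS 5 (71.4%) were higher than in 3day nt, beside 17.4% of all genes, with a median of 2.06. Cd177, a surface protein of neutrophils, was lower by 4.95 in 2151R.

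Of 14 matched lymphocyte chemokines and receptors, 2 (14.3%) rose and 5 (35.7%) fell in 2151R relative to 2208L, beside 26.1% and 22.7% of all genes. Cxcl11 was lower by 2.74 (SE 0.60, limma adjusted p = 0.00196) and Cxcl10, like it a ligand of the receptor of activated T and NK cells, by 1.88 (SE 0.49, limma adjusted p = 0.00647). Cx3cr1, a receptor of monocytes and mature NK cells, was 1.65 higher (SE 0.42, limma adjusted p = 0.00539). In PBS against 3day nt, 1 (7.14%) was higher and 5 (35.7%) lower, beside 17.4% and 16.5% of all genes. Xcr1, a receptor of cross-presenting dendritic cells, was lower by 2.30 (SE 0.63, limma adjusted p = 0.0327). Of 5 matched plasmacytoid dendritic cell genes, 3 (60%, beside 16.5% of all genes) were lower in PBS, and Siglech was lower by 3.39 (SE 0.82, limma adjusted p = 0.0222).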
